A study of Mus musculus with 6 samples.

Results

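The genes described are those that encode the subunits of the proteasome, the protein complex that degrades ubiquitin-tagged proteins. They were taken by name: 40 of the 19057 genes named on the array had a symbol beginning with Psma, Psmb, Psmc or Psmd followed by a digit. Of these 40, 39 encode subunits or assembly factors named as subunits, namely 16 of the core particle, 3 of the immunoproteasome and 20 of the regulatory particle. The remaining gene, Psmc3ip, encodes a protein that binds Psmc3 and is no subunit. Each gene was represented by its brightest probe over all arrays. Filtering out dim probes at an intensity of 58.7 left 35 of the 40 genes for testing, 34 of them subunits (13 core, 3 immune and 18 regulatory). The 5 subunit genes below it were Psma1, Psma3, Psma6, Psmc6 and Psmd3, with mean intensities of 42.9, 43.8, 43.0, 51.6 and 51.4.

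The hearts came from FvB mice and were measured on 6 bead arrays: 2 of JMJD2A-transgenic mice after TAC, 1 of JMJD2A-transgenic mice after sham surgery, 2 of wild-type mice after TAC and 1 of wild-type mice after sham surgery. TAC is thoracic aortic constriction, in which a narrowed aorta loads the left ventricle with pressure, and the hearts were taken 3 weeks after surgery. JMJD2A (mouse gene Kdm4a) is a histone lysine demethylase, and the transgene was heart-specific, but no source used here names the promoter that drives it. The labels give an age of 8 weeks for all 6 arrays, whereas the design text gives the age in years. Nothing in the labels says whether an array holds RNA of 1 animal or of a pool, so the p-values measure only the spread between these arrays, which may be technical. With 1 sham array per genotype, the sham groups have no spread of their own.

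The core particle is a barrel of stacked rings, in which the outer alpha rings (Psma genes) gate the entrance and the inner beta rings (Psmb genes) hold the cutting sites. Of the beta subunits, Psmb6 carries the caspase-like site, Psmb7 the trypsin-like site and Psmb5 the chymotrypsin-like site. Under interferon gamma these are replaced in newly built particles by Psmb9, Psmb10 and Psmb8, which gives the immunoproteasome, known for producing peptides for MHC class I. The regulatory particle caps the barrel: a ring of ATPases (Psmc genes) unfolds the substrate, and non-ATPase subunits (Psmd genes) bind and remove ubiquitin. Cardiomyocytes depend on this system to clear damaged proteins, and the transcription factor Nrf1 (Nfe2l1), which acts through antioxidant response elements, raises the subunit genes together when proteasome activity falls.

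Promoters of the catalytic pair of the chymotrypsin-like site are shown because constitutive and immune subunits are known to answer to different regulators. Both are RefSeq sequences of build GRCm38.p6, each of 300 bases around the gene's start. The Psmb5 promoter lies at chr14:54617946-54618245 on the minus strand and the Psmb8 promoter at chr17:34197945-34198244 on the plus strand. Capitals mark the antioxidant response element core, searched as TGACNNNGC, in Psmb5 at position -47 from the start, and the gamma-activated sequence core, searched as TTCNNNGAA, in Psmb8 at position -97.
Psmb5: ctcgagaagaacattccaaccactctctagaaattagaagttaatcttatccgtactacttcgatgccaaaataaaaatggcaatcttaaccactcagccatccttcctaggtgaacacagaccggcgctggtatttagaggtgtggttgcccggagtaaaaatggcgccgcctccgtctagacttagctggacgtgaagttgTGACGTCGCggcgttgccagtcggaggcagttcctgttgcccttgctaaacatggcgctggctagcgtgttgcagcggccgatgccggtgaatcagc
Psmb8: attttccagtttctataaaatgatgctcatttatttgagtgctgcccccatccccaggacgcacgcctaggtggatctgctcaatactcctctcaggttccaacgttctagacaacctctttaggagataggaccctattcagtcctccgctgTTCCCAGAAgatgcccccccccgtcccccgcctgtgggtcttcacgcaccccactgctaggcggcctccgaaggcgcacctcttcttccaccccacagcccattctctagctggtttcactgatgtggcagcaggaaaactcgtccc

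A promoter was at hand for 32 of the 39 subunit genes. On both strands, the antioxidant response element core was present in 5 of the 32 genes (Psmb5, Psmb6, Psmc6, Psmd9 and Psmd12), a share of 15.6%, against 12.4% of 32851 promoters in all. The gamma-activated core was present in Psmb8 and Psmd2, a share of 6.25%, against 8.3% of all promoters. A CCAAT box was present in 13 of the 32 genes (40.6%), against 37.4% of all promoters. A match is a run of letters in this window and no measured binding site, and the gamma-activated pattern reads the same on both strands. The 40 genes lie on 16 chromosomes, and Psmb8 and Psmb9 stand beside the peptide transporter genes Tap1 and Tap2 on chromosome 17.

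The 6 arrays had nearly the same distribution of intensities, with medians of 56.32 to 56.36, and log2 intensities of pairs of arrays correlated at 0.9838 to 0.9938. Cardiomyocyte markers were measured for 6 of 7 genes, with summed intensities of 61880 to 67658 in transgenic arrays and 63082 to 64854 in wild-type arrays. The level of Kdm4a, 6.75, 6.45 and 6.66 log2 in the transgenic arrays against 6.51, 6.64 and 6.70 log2 in the wild-type arrays, does not separate the genotypes, and the probe's position relative to the transgene was not given. Xist, the RNA of the inactive X chromosome, was low on transgenic sham (5.41 log2) and wild-type TAC 2 (5.38 log2) and between 10.36 and 11.03 log2 on the other 4 arrays. These 2 arrays fall in different groups, and sex is not in the labels. In whole hearts, fewer cells of a type and less RNA per cell cannot be told apart.

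The first question was whether the subunit genes differ between transgenic and wild-type hearts, with both surgeries in an additive model of genotype and surgery fitted with limma. None of the 34 subunit genes passed an adjusted p of 0.05, where 0.949% of the 11167 genes tested did, and the smallest adjusted p among them was 0.339. At an unadjusted p under 0.05 there were 2 of 34, Psmd1 and Psma8, against 11.5% of all genes. Differences were above 0 for 21 of 34 genes, where 47.6% of all genes were, with a median of 0.07 on the log2 scale against -0.01 over all genes. The median was 0.09 for 13 core genes (8 above 0), 0.24 for 3 immune genes (2 above 0) and 0.05 for 18 regulatory genes (11 above 0). An absolute difference of at least 0.25 was reached by 3 of 34 genes, against 20.1% of all genes. The 95% intervals of the 34 genes ran from -0.55 at the lowest to 0.75 at the highest.

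**Figure D1:**
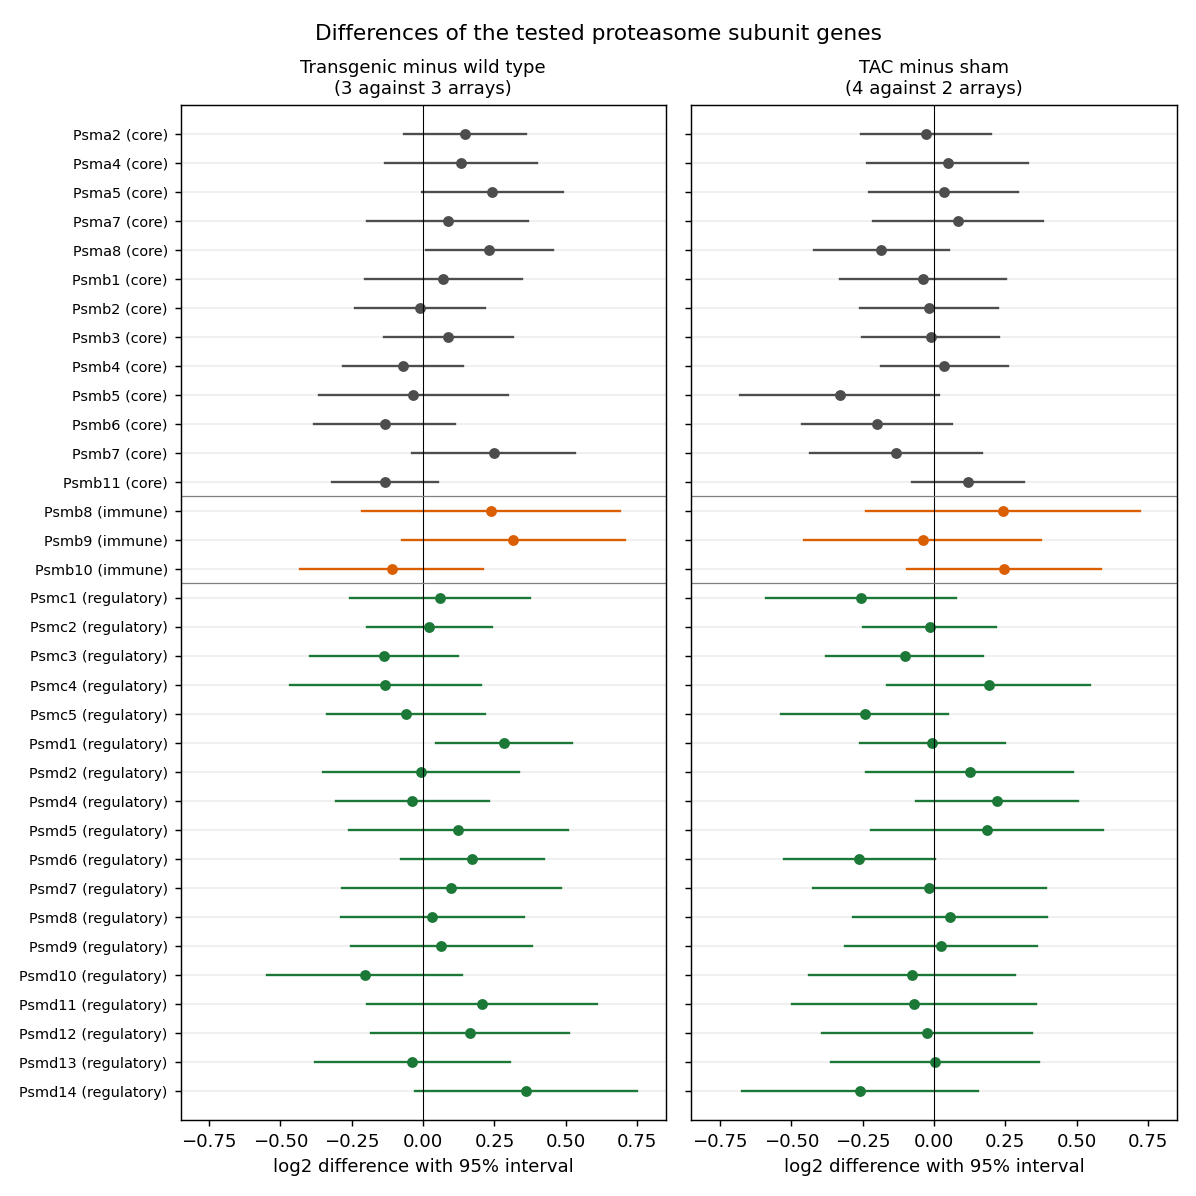
Log2 differences of the 34 tested subunit genes with 95% intervals, transgenic minus wild type on the left (3 against 3 arrays) and TAC minus sham on the right (4 against 2 arrays), by class in grey (core), orange (immune) and green (regulatory). No point lies further from 0 than the 0.36 of Psmd14, and on the left the intervals of Psmd1 and Psma8 lie above 0.

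Psmd1, a large scaffold subunit at the base of the regulatory particle, had the smallest p of the subunits. It measured 12.88, 12.64 and 12.81 log2 in transgenic TAC 1, TAC 2 and sham arrays, against 12.57, 12.44 and 12.47 log2 in wild-type TAC 1, TAC 2 and sham arrays. The groups did not overlap, and the difference was 0.28 ± 0.11 (SE; interval 0.04 to 0.52; adjusted p = 0.339). The other 2 probes of Psmd1 differed by 0.21 and 0.15, also above 0, but on both the groups overlapped.

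Psmd14, the deubiquitinase that strips ubiquitin chains at the entrance of the particle, measured 8.17, 8.06 and 8.54 log2 in transgenic arrays against 7.63, 8.10 and 7.96 log2 in wild-type arrays. The groups overlapped through wild-type TAC 2, and the difference of 0.36 ± 0.17 (SE) had an adjusted p of 0.472. A second, dimmer Psmd14 probe measured 7.38, 7.46 and 7.59 log2 in transgenic arrays against 6.90, 7.08 and 6.91 log2 in wild-type arrays. On that probe the groups did not overlap, and the difference was 0.51 ± 0.14 (SE), with an adjusted p of 0.227 over 17442 probes tested one by one, a fit added after the data had been seen.

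In the alpha ring, Psma5 measured 13.00, 12.86 and 12.77 log2 in transgenic arrays against 12.50, 12.72 and 12.69 log2 in wild-type arrays. The groups did not overlap, with a difference of 0.24 ± 0.11 (SE; adjusted p = 0.446). Psma2 measured 13.32, 13.24 and 13.22 log2 in transgenic arrays against 13.00, 13.15 and 13.19 log2 in wild-type arrays. Its groups were apart by a narrow margin, and the difference was 0.15 ± 0.09 (SE; adjusted p = 0.626). Psma8, an alpha subunit known from the testis, was dim, with 6.32, 6.12 and 6.35 log2 in transgenic arrays against 6.00, 5.91 and 6.19 log2 in wild-type arrays. The ranges overlapped, and the difference was 0.23 ± 0.10 (SE; adjusted p = 0.414). On the brightest probes, 3 of 34 subunit genes (Psma2, Psma5 and Psmd1) were higher in transgenic arrays without overlap, where 7.59% of all genes were. Lower without overlap was 1 gene, Psmb11, a beta subunit known from the thymus whose mean intensity of 61.8 lay just above the filter, where 8.55% of all genes were.

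The constitutive catalytic subunits went different ways between the genotypes, none beyond the test. Psmb7 measured 12.52, 12.14 and 12.58 log2 in transgenic arrays against 12.12, 12.21 and 12.18 log2 in wild-type arrays. Transgenic TAC 2 lay with the wild-type arrays while the other transgenic arrays were higher, and the difference was 0.25 ± 0.13 (SE; adjusted p = 0.518). Another Psmb7 probe read 12.22 in transgenic TAC 1 and 10.50 log2 in transgenic TAC 2, a gap larger than that probe's genotype difference of 0.29. Psmb6 measured 12.20, 12.21 and 12.37 log2 in transgenic arrays against 12.18, 12.46 and 12.55 log2 in wild-type arrays. The ranges overlapped, at a difference of -0.13 ± 0.11 (SE; adjusted p = 0.709). For Psmb5 the difference was -0.03 ± 0.15 (SE; adjusted p = 0.963).

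The immune subunits also did not pass the test, though their values spread more widely. Psmb9 measured 8.86, 8.88 and 9.00 log2 in transgenic arrays against 8.33, 8.90 and 8.56 log2 in wild-type arrays. Wild-type TAC 2 stood with the transgenic arrays, and the difference was 0.32 ± 0.17 (SE; adjusted p = 0.555). Psmb8 measured 9.77, 9.09 and 9.36 log2 in transgenic arrays against 9.13, 9.48 and 8.90 log2 in wild-type arrays. The transgenic TAC arrays alone spanned most of that range, and the difference was 0.24 ± 0.20 (SE; adjusted p = 0.717). A second Psmb8 probe differed by 0.04. Psmb10 measured 11.71, 11.74 and 11.32 log2 in transgenic arrays against 11.50, 11.95 and 11.64 log2 in wild-type arrays, and here the difference ran the other way, at -0.11 ± 0.14 (SE; adjusted p = 0.834), and at 0.22 without both arrays of low Xist.

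**Figure D2:**
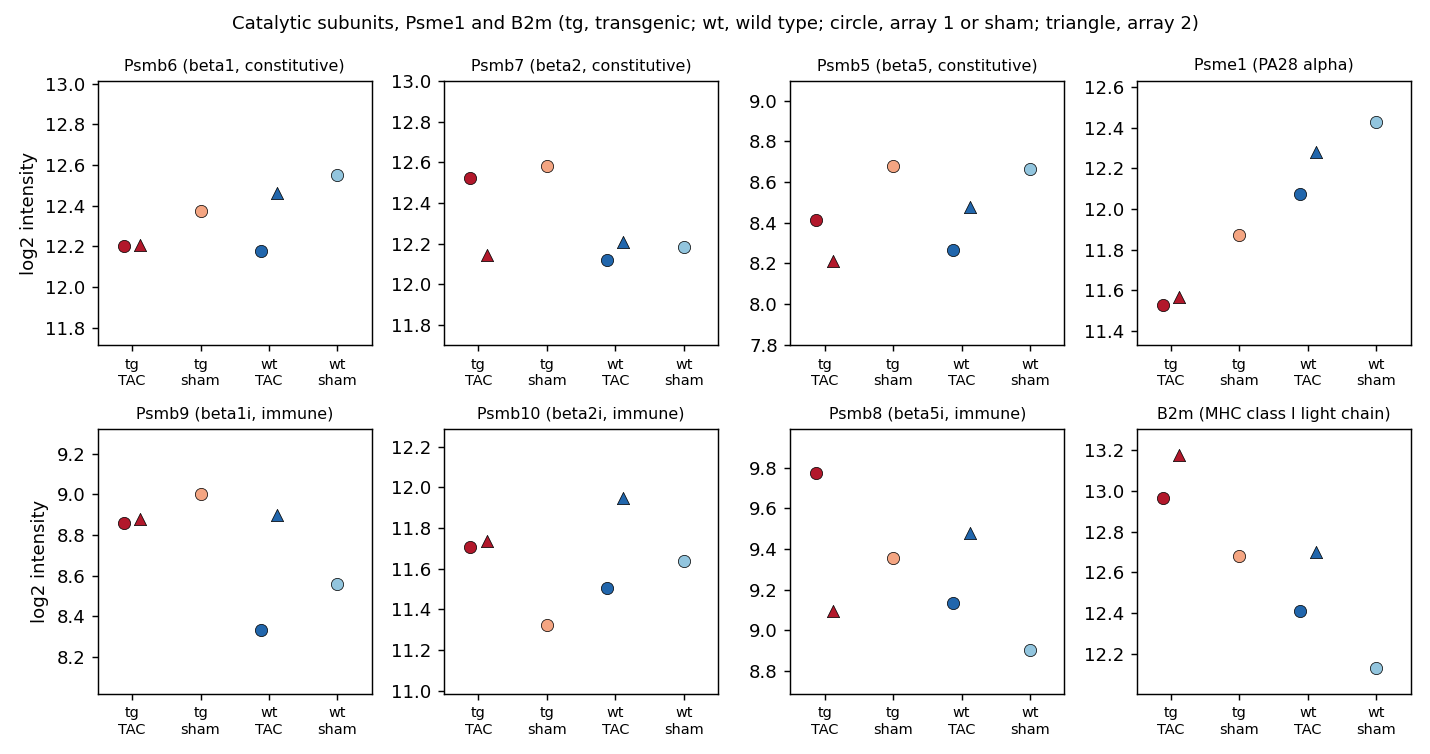
Log2 intensity on each of the 6 arrays, transgenic (tg, red) left of wild type (wt, blue), for the 3 constitutive catalytic subunits above their immune counterparts, with Psme1 and B2m at the right; circles are array 1 or sham and triangles array 2. The axes start at different values and each spans only part of the scale. Only Psme1 has transgenic and wild-type arrays without overlap, and the transgenic TAC arrays of Psmb8 lie apart at 9.77 and 9.09.

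The second question was the response to pressure load, TAC against sham over both genotypes. None of the 34 subunit genes passed the adjusted test, where 0.00895% of all genes (1 gene, Acta1, the skeletal muscle actin) did, and the smallest adjusted p among them was 0.543. None had an unadjusted p under 0.05, against 9.26% of all genes. Differences were above 0 for 14 of 34 genes, where 48.6% of all genes were, and the median was -0.02 on the log2 scale against -0.01 over all genes. An absolute difference of at least 0.25 was reached by 4 of 34 genes, against 20.2% of all genes. Core genes had a median of -0.02 (5 of 13 above 0), immune genes 0.24 (2 of 3 above 0) and regulatory genes -0.02 (7 of 18 above 0). The median absolute difference was 0.08 for subunit genes and 0.12 for all genes. The intervals of the 34 genes ran from -0.68 to 0.72. Without both arrays of low Xist, 8 of 34 differences were above 0 for TAC, where 46.6% of all genes were. For genotype 28 of 34 were above 0, against 50.8% of all genes. In that fit wild-type TAC 1 alone is set against wild-type sham for TAC, and against the transgenic TAC arrays for genotype.

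Psmb5 had the largest TAC difference in either direction among the 34. It measured 8.41 and 8.21 log2 in transgenic TAC and 8.27 and 8.48 log2 in wild-type TAC arrays, against 8.68 log2 in transgenic sham and 8.67 log2 in wild-type sham. All 4 TAC arrays lay below both sham arrays, and the difference was -0.33 ± 0.15 (SE; adjusted p = 0.552). Psmb6 measured 12.20 and 12.21 log2 in transgenic TAC and 12.18 and 12.46 log2 in wild-type TAC, against 12.37 and 12.55 log2 in transgenic and wild-type sham. Wild-type TAC 2 lay between the sham arrays, and the difference was -0.20 ± 0.12 (SE; adjusted p = 0.649). Psmb7 differed by -0.13 ± 0.13 (SE; adjusted p = 0.806). The dim Psma8 differed by -0.18 ± 0.10 (SE; adjusted p = 0.639).

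Psmc5, an ATPase of the ring, measured 11.02 and 11.24 log2 in transgenic TAC and 11.06 and 11.26 log2 in wild-type TAC, against 11.33 and 11.44 log2 in transgenic and wild-type sham. The TAC arrays lay below the sham arrays, at a difference of -0.24 ± 0.13 (SE; adjusted p = 0.618). A second, dimmer Psmc5 probe differed by -0.09, and on it the TAC and sham arrays overlapped. It measured 10.71 and 10.26 log2 in transgenic TAC and 10.67 and 10.65 log2 in wild-type TAC. The transgenic and wild-type sham arrays had 10.75 and 10.58 log2 on that probe. Psmc1, another ATPase, measured 10.26 and 10.07 log2 in transgenic TAC and 9.94 and 10.27 log2 in wild-type TAC, against 10.42 and 10.36 log2 in the sham arrays. No TAC array of Psmc1 reached a sham array. On the brightest probes, Psmb5, Psmc1 and Psmc5 were the 3 of 34 genes lower after TAC without overlap, where 8.16% of all genes were. Higher without overlap were 0 of 34, where 8.39% of all genes were.

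Psmd4, a ubiquitin receptor of the regulatory particle, had a TAC difference above 0, with 12.83 and 13.09 log2 in transgenic TAC and 12.79 and 13.00 log2 in wild-type TAC, against 12.58 and 12.83 log2 in transgenic and wild-type sham. Wild-type sham lay within the TAC range, and the difference was 0.22 ± 0.13 (SE; adjusted p = 0.636). Psmd6, a lid subunit close to the filter, measured 5.77 and 5.98 log2 in transgenic TAC and 5.88 and 5.79 log2 in wild-type TAC, against 6.34 and 5.90 log2 in transgenic and wild-type sham. Its difference of -0.26 ± 0.12 (SE; adjusted p = 0.543) came with a single high array, transgenic sham.

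Of the immune subunits, Psmb10 and Psmb8 each had a TAC difference of 0.24, with SEs of 0.15 and 0.21 and adjusted p-values of 0.664 and 0.780, and Psmb9 differed by -0.04 ± 0.18 (SE; adjusted p = 0.968). A second Psmb10 probe differed by 0.26 and a second Psmb8 probe by 0.08. Leaving out 1 array moved the Psmb8 value between 0.078 (without wild-type sham) and 0.41 (without transgenic TAC 2). The Psmb10 value moved between 0.089 (without transgenic sham) and 0.40 (without wild-type sham). Without 1 sham array, the value is the TAC difference within the other genotype alone. Without both arrays of low Xist the Psmb10 value was -0.13. Of 10 listed leukocyte markers 7 were tested, and none passed the test. TAC differences were above 0 for 6 of the 7, where 48.6% of all genes were. The summed intensities of the 8 markers on the array, Ptprc included, were 5535, 5180, 4620 and 4923 in TAC arrays against 4407 and 3383 in sham arrays. Ptprc, the general leukocyte marker, was not among the genes tested. The part of leukocytes in the immune subunit values was not tested.

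A second way to read the catalytic pairs is the immune probe minus the constitutive probe for the same site, after each is centred on its own mean over the 6 arrays. For the chymotrypsin-like site, Psmb8 minus Psmb5, these values were 0.52 and 0.04 in transgenic TAC and 0.03 and 0.16 in wild-type TAC, against -0.16 and -0.60 in transgenic and wild-type sham. All 4 TAC arrays lay above both sham arrays, where Psmb5 alone already separated them and Psmb8 alone did not. For the trypsin-like site, Psmb10 minus Psmb7, they were -0.17 and 0.24 in transgenic TAC and 0.04 and 0.39 in wild-type TAC, against -0.61 and 0.11 in transgenic and wild-type sham. The TAC and sham ranges overlapped. For the caspase-like site, Psmb9 minus Psmb6, they were 0.23, 0.24 and 0.20 in transgenic arrays against -0.27, 0.01 and -0.42 in wild-type arrays, without overlap between the genotypes. No test was run on these values, and no share over other gene pairs was computed. They compare shifts of probes and not amounts of protein.

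Restricting the genotype comparison to TAC hearts, 2 arrays against 2, left none of the 34 subunit genes past the adjusted test, where 0.206% of all genes passed it. The smallest adjusted p was 0.867, and 0 of 34 had an unadjusted p under 0.05, against 5.76% of all genes. Differences were above 0 for 24 of 34 genes, where 49.2% of all genes were, with medians of 0.05 in core, 0.13 in immune and 0.07 in regulatory genes. At least 0.25 in absolute value was reached by 7 of 34 genes, against 20.3% of all genes. On the brightest probes, 8 of 34 were higher in transgenic TAC without overlap, where 15.5% of all genes were. These were Psma2, Psma5, Psma7, Psma8, Psmb3, Psmc2, Psmd1 and Psmd8. Dimmer probes of Psma7, Psmc2 and Psmd1 above the filter overlapped. Lower without overlap was 1 of 34 (Psmb11), where 16.8% of all genes were. The values of Psma5 differed by 0.32 ± 0.14 (SE; adjusted p = 0.867), of Psma8 by 0.27 ± 0.13 (SE; adjusted p = 0.923), of Psmd1 by 0.25 ± 0.14 (SE; adjusted p = 0.999) and of Psma2 by 0.20 ± 0.13 (SE; adjusted p = 0.999). Psmd7, the lid partner of Psmd14, differed by 0.30 ± 0.19 (SE; adjusted p = 0.999). Without wild-type TAC 1 the count above 0 was 16 of 34, where 47.3% of all genes were, and the median -0.02. With Xist as a covariate the count was 28 of 34, where 50.3% of all genes were, and the median 0.17. In the model of 4 groups the Xist term is estimated only from the TAC replicate pairs. It rests mainly on the wild-type pair, with Xist at 10.50 and 5.38 log2, so these values carry that pair's replicate gap.

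Wild-type TAC 1 was the lowest of the 6 arrays for 12 of the 34 subunit genes and the highest for 0, where it was the lowest for 1941 and the highest for 1470 of all 11167 genes. Its median deviation from the gene means was -0.12 on the log2 scale, against -0.01 over all genes on that array. The other arrays had medians between -0.03 and 0.08, and transgenic TAC 1, at 0.08, was the highest array for 11 subunit genes, and for 1725 of all 11167 genes. Between the wild-type TAC replicates, array 2 exceeded array 1 for 28 of 34 subunit genes and for 6119 of all 11167 genes, and the median absolute gap was 0.17, against 0.14 over all genes. Without wild-type TAC 1, genotype differences over both surgeries were above 0 for 17 of 34 genes, where 46.7% of all genes were. TAC differences over both genotypes were then above 0 for 21 of 34, against 50.1% of all genes. Between the transgenic TAC replicates, array 2 exceeded array 1 for 12 of 34 subunit genes and for 6553 of all 11167 genes, with subunit gaps from -0.68 (Psmb8) to 0.47 (Psmc4). Their median absolute gap was 0.20, against 0.22 over all genes. The genotype difference over both surgeries was larger than the gene's own transgenic TAC replicate gap in 12 of 34 genes, 35.3%, against 32.7% of all genes. For the TAC difference this held in 10 of 34, 29.4%, against 32.6% of all genes.

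**Figure D3:**
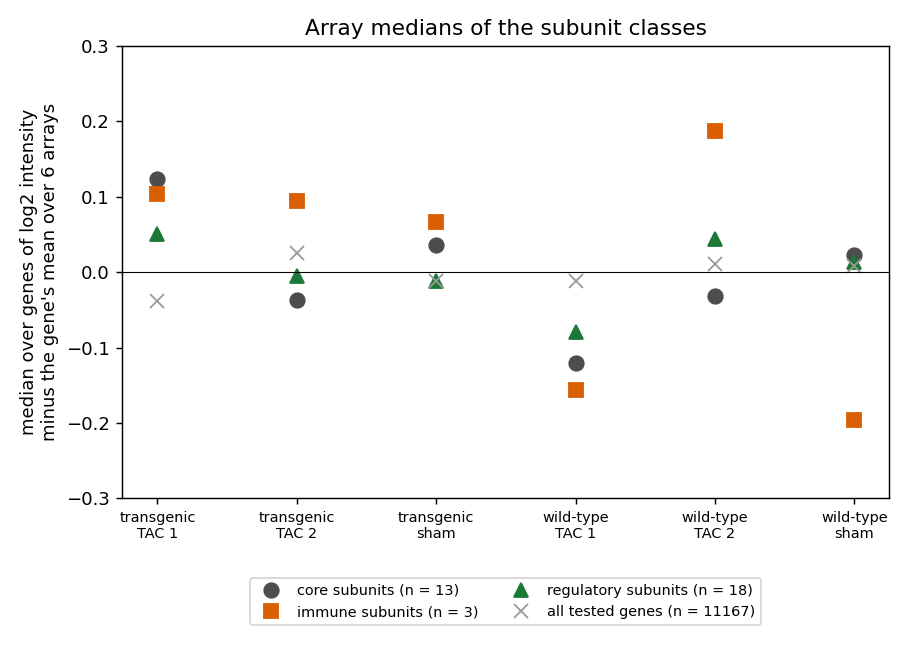
Median over genes of the log2 intensity minus the gene's mean over 6 arrays, for each array, in core (grey circles), immune (orange squares) and regulatory (green triangles) subunits and in all tested genes (crosses). All 3 classes lie below 0 on wild-type TAC 1, and the immune median is lowest on wild-type sham, at -0.20.

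The classes differed in how far their genes ranged over the 6 arrays, given as highest minus lowest log2 value. The median range was 0.32 for core genes, 0.67 for immune genes and 0.50 for regulatory genes, against 0.47 over all genes. Psmb2, a beta subunit without a cutting site, had the narrowest range of the 34 subunit genes, 0.13, and Psmd14 the widest, 0.91. The mean level was 12.33 log2 for Psmb2 and 8.08 log2 for Psmd14. The part of brightness in these ranges was not tested, and the immune class holds only 3 genes.

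**Figure D4:**
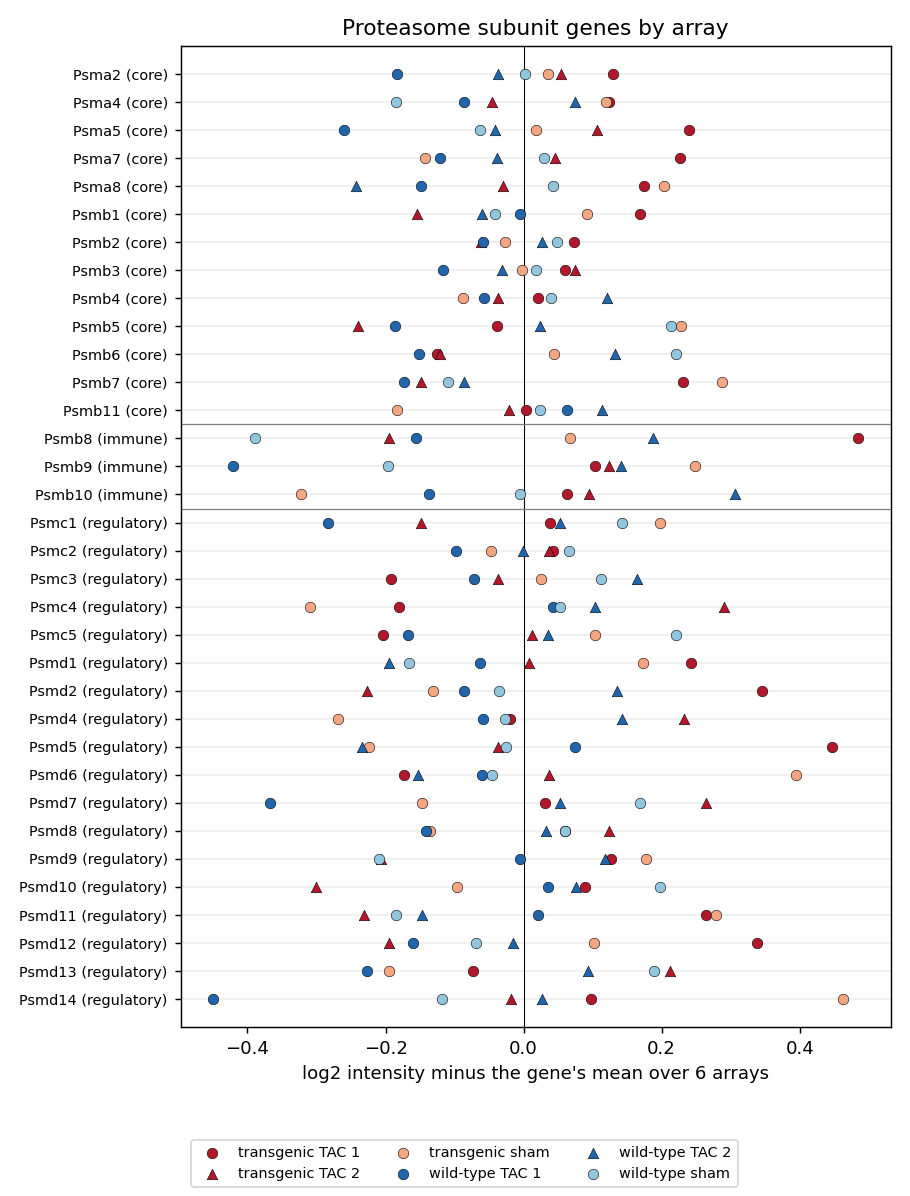
Log2 intensity minus the gene's mean over 6 arrays for each of the 34 tested subunit genes, one row a gene, with transgenic arrays in red and orange and wild-type arrays in blue. Core genes cluster near 0, Psmb8 and Psmd14 reach furthest from it, and wild-type TAC 1 (dark blue circles) lies left of 0 in most rows.

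Within each genotype the TAC response rested on 2 arrays against 1, with the sham array assumed to vary like the TAC arrays. In transgenic hearts 0 of 34 subunit genes passed the adjusted test, where 0% of all genes did, and 1 of 34, Psmd6, had an unadjusted p under 0.05, against 4.86% of all genes. Psmd6 differed by -0.46 ± 0.14 (SE; adjusted p = 0.991). The next smallest p-values were those of Psmd4 at 0.38 ± 0.18, Psmb10 at 0.40 ± 0.22, Psmd5 at 0.43 ± 0.25 and Psmc4 at 0.37 ± 0.23 (SE; adjusted p = 0.991 for each). Psmd5 is an assembly chaperone of the ATPase ring. In wild-type hearts 0 of 34 passed, where 0% of all genes did, and 0 of 34 had an unadjusted p under 0.05, against 3.56% of all genes. The 5 smallest p-values there were those of Psma8 at -0.24 ± 0.16, Psmd7 at -0.33 ± 0.23, Psmc5 at -0.29 ± 0.21, Psmd9, another assembly chaperone, at 0.27 ± 0.19 and Psmb8 at 0.41 ± 0.32 (SE; adjusted p = 1.000 for each). On the second, dimmer probe of Psmc5 both wild-type TAC arrays lay above wild-type sham. The medians over subunit genes were 0.01 in transgenic and -0.06 in wild-type hearts, with 17 and 12 of 34 genes above 0, where 50.9% and 47.1% of all genes were. Absolute differences of at least 0.25 were found for 12 of 34 genes in transgenic hearts, against 29.2% of all genes, and for 7 of 34 in wild-type hearts, against 25% of all genes. With Xist as a covariate, 25 of 34 genes were above 0 in transgenic hearts (median 0.17), where 53.4% of all genes were. In wild-type hearts 9 of 34 were (median -0.13), against 46.9% of all genes. Here too the Xist term rests mainly on the wild-type TAC pair.

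The difference between the TAC responses of transgenic and wild-type hearts was tested directly. None of the 34 subunit genes passed, where 0% of all genes did, and 0 of 34 had an unadjusted p under 0.05, against 1.64% of all genes. Values were above 0 for 21 of 34 genes, where 52.3% of all genes were, with a median of 0.09, and at least 0.25 in absolute value for 14 of 34, against 31.6% of all genes. With Xist as a covariate, 28 of 34 values were above 0, where 53.4% of all genes were, and the median was 0.33. The Xist term is estimated mainly from the wild-type TAC pair, so an effect of Xist and that pair's replicate gap cannot be told apart. Psmd7 had the largest value, 0.62 ± 0.33 (SE; adjusted p = 1.000), with 11.45 and 11.68 log2 in transgenic TAC against 11.27 log2 in transgenic sham, and 11.05 and 11.47 log2 in wild-type TAC against 11.58 log2 in wild-type sham. Its other 2 probes did not share this pattern, with 10.15, 8.73 and 9.77 log2 in transgenic and 9.31, 8.99 and 9.14 log2 in wild-type arrays on the first, and 7.89, 7.89 and 8.09 log2 in transgenic and 7.94, 7.54 and 7.46 log2 in wild-type arrays on the second, each in the order TAC 1, TAC 2, sham. Psmd13, a lid subunit, had 0.52 ± 0.30, Psmd9 -0.48 ± 0.28, Psmd6 -0.40 ± 0.20 and Psma7, an alpha subunit, 0.39 ± 0.27 (SE; adjusted p = 1.000 for each). A second, dimmer Psma7 probe measured 11.77 and 11.25 log2 in transgenic TAC against 11.54 log2 in transgenic sham. In wild-type TAC it measured 11.47 and 11.35 log2, against 11.53 log2 in wild-type sham. With the median over probes, the Psma7 value was 0.24. The intervals of the 34 genes reached from -1.38 to 1.38.

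The sham hearts give 1 array against 1 and carry no test. Transgenic sham minus wild-type sham had a median of -0.05 over the 34 subunit genes, with 16 of 34 above 0, where 47.1% of all genes were. The class medians were 0.01 in core, 0.44 in immune and -0.10 in regulatory genes. None of the 34 reached an absolute difference of 1, where 1.04% of all genes did. The largest differences among the 35 measured genes were 0.60 in Psmc3ip, 0.58 in Psmd14 and 0.46 in Psmd11, and the lowest were -0.38 in Psmd13, -0.36 in Psmc4 and -0.32 in Psmb10. In Psmc3ip, which is no subunit, transgenic arrays had 10.67, 9.96 and 10.66 log2 and wild-type arrays 10.12, 10.19 and 10.06 log2, so that transgenic TAC 2 lay below every other array. Its genotype difference was 0.30 ± 0.19 (SE; adjusted p = 0.618).

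Several probes above the filter were present for 14 of the member genes. For 12 of these 14 genes, all probes had the same sign for transgenic against wild type, and for 10 of 14 they did for TAC against sham. The signs differed for Psmc2 and Psmd10 in the genotype comparison. In the TAC comparison they differed for Psma7, Psmd1, Psmd7 and Psmd10. Psmc2, an ATPase, had TAC differences of the same sign but unlike size, -0.01 on its brightest probe and -0.28 on a dimmer one. The smallest adjusted p of any member probe tested on its own was 0.227, on the second Psmd14 probe.

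Genes that act with the proteasome were set beside its subunits from lists of activators, ubiquitin handling, transcription and antigen processing. Among 11 tested of 17 activators, inhibitor and assembly factors, 1 passed the test for genotype, where 0.949% of all genes did. It was lower in transgenic hearts. Psme1, the alpha subunit of the PA28 activator that opens the core particle and is known from the immunoproteasome, fell to 11.53, 11.57 and 11.87 log2 in transgenic TAC 1, TAC 2 and sham, against 12.07, 12.28 and 12.43 log2 in wild-type TAC 1, TAC 2 and sham. All transgenic arrays lay below all wild-type arrays, and the difference was -0.61 ± 0.11 (SE; interval -0.85 to -0.36; adjusted p = 0.0405). A second Psme1 probe differed by -0.80 ± 0.15 (SE), and tested one by one over 17442 probes the 2 probes had adjusted p-values of 0.0739 and 0.0775, both above 0.05. The call depended on the arrays, since without any 1 array the difference ran from -0.66 to -0.54 and the adjusted p from 0.0201 to 0.301, and the call held only without transgenic TAC 2. Its partner in the same activator ring, Psme2, measured 9.40, 8.14 and 8.97 log2 in transgenic arrays against 8.72, 8.90 and 8.96 log2 in wild-type arrays, a difference of -0.03 ± 0.28 (SE; adjusted p = 0.984). The genotype median of the list was -0.03, with 5 of 11 above 0. Of all genes, 47.6% were above 0 for genotype and 48.6% for TAC. The next genotype p-values were those of the assembly chaperones Psmg1 (-0.19 ± 0.15, SE) and Psmg2 (-0.14 ± 0.15, SE). For TAC, 3 of 11 were above 0, with a median of -0.13, none past the test, and the values were -0.39 ± 0.18 (SE; adjusted p = 0.546) in Ecpas, a proteasome adaptor, -0.29 ± 0.11 (SE; adjusted p = 0.495) in Psme1 and -0.24 ± 0.16 (SE) in Psmg1.

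The MHC class I list, which shares interferon gamma control with the immune subunits, had 12 of 15 genes tested. For genotype 8 of 12 were above 0, where 47.6% of all genes were, with a median of 0.26. For TAC 12 of 12 were above 0, where 48.6% of all genes were, with a median of 0.23. None passed the adjusted test in either comparison. B2m, the light chain of MHC class I, measured 12.97, 13.18 and 12.68 log2 in transgenic arrays against 12.41, 12.70 and 12.13 log2 in wild-type arrays, with transgenic sham just below wild-type TAC 2. Its genotype difference was 0.53 ± 0.11 (SE; adjusted p = 0.0839) and its TAC difference 0.41 ± 0.12 (SE; adjusted p = 0.378). Nlrc5, the transcriptional activator of MHC class I genes, differed by 0.57 ± 0.15 (SE; adjusted p = 0.155) between genotypes, and Pdia3, a chaperone of peptide loading, by 0.50 ± 0.15 (SE; adjusted p = 0.200). For TAC, Pdia3 differed by 0.29 ± 0.16 (SE) and H2-D1, an MHC class I heavy chain, by 0.42 ± 0.13 (SE; adjusted p = 0.411). Markers of several cell types had TAC differences above 0 beside these genes: 6 of 7 leukocyte (median 0.18), 6 of 6 fibroblast (median 0.43) and 5 of 5 endothelial markers (median 0.23), against 2 of 6 cardiomyocyte markers (median -0.15). For genotype, 5 of 7 leukocyte (median 0.11), 6 of 6 fibroblast (median 0.13), 0 of 5 endothelial (median -0.24) and 3 of 6 cardiomyocyte markers (median 0.01) were above 0. None of these markers passed the test in either comparison, and their part in the MHC class I values was not tested.

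In the other lists no gene passed the test in the genotype or TAC comparison. Of all genes, 47.6% were above 0 for genotype and 48.6% for TAC. Among 10 tested of 13 deubiquitinases and shuttle receptors, 6 were above 0 for genotype (median 0.02) and 4 for TAC (median -0.09). Uchl5, a deubiquitinase bound to the regulatory particle, differed by 0.31 ± 0.14 (SE; adjusted p = 0.428) and Ubqln1, a shuttle receptor, by 0.26 ± 0.12 (SE; adjusted p = 0.464) for genotype, with Ube3c, a ubiquitin ligase, at 0.19 ± 0.13 (SE). Their TAC values were -0.22 in Uchl5 and -0.15 in Ubqln1, beside -0.24 in Rad23b, another shuttle receptor. Among 9 tested of 13 transcriptional regulators, 5 were above 0 for genotype (median 0.02) and 4 for TAC (median -0.03), and Mafg, a small Maf partner of Nrf1, differed by 0.33 ± 0.16 (SE; adjusted p = 0.473) for genotype and by 0.23 ± 0.17 (SE) for TAC. The genotype values were -0.19 in Foxo1 and -0.16 in Stat3, and the TAC values -0.22 in Foxo3 and -0.10 in Maff, all transcription factors. Among 10 tested of 16 ubiquitin and muscle ligase genes, 7 were above 0 for genotype (median 0.05) and 0 for TAC, where 48.6% of all genes were (median -0.12). Trim54, a muscle ring-finger protein, differed by 0.39 ± 0.14 (SE; adjusted p = 0.314) for genotype, and Asb2, a muscle ubiquitin ligase subunit, by -0.26 ± 0.12 (SE; adjusted p = 0.558) for TAC. Stub1, a chaperone-bound ligase, had -0.30 ± 0.14 (SE) for genotype and -0.16 ± 0.15 (SE) for TAC, and Asb2 had -0.26 for genotype. Uba6, a ubiquitin-activating enzyme, had -0.51 ± 0.35 (SE) for TAC, with a single low array, wild-type TAC 1, at 9.25 log2. It measured 10.43 and 10.79 log2 in transgenic TAC and 10.43 log2 in wild-type TAC 2. The transgenic and wild-type sham arrays had 10.48 and 10.99 log2.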

How the data were processed

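RNA from mouse hearts was measured on 6 Illumina bead arrays; the labels' protocols name Trizol extraction, DNase I and biotin labelling. The deposited values are linear intensities; their sorted columns differ by at most 0.00644 log2, while no source used here names the normalization. Of 45281 probes, 34885 had 1 symbol in the platform annotation, 18 several and 10378 none. Intensities were floored at 32 (12 values) and taken to log2; the brightest probe stood for a gene, and 11167 of 19057 genes above the 50th percentile (58.7) were tested. limma 3.58.1 in R 4.3.3 (lmFit, eBayes with trend) fitted genotype plus surgery (3 residual, 6.14 prior degrees of freedom) or 4 groups (2 and 6.25), 6 comparisons in all, with Benjamini-Hochberg adjustment over all tested genes. The number of arrays limits the precision. Named are the catalytic subunits, the 5 smallest p-values per comparison and the 3 largest sham differences each way. Also named are the 3 smallest p-values of each companion list for genotype and TAC. Psmb2, Psmb3, Psmb11, Psmc1, Psmc2, Psmd8, Psmd10 and Psme2 were added after their values were seen. Members and lists were chosen with earlier results of these data known. The fits were tested on simulated data. Alternatives changed the probe choice, filter, variance trend, normalization, background, Xist term and arrays.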

Additional observations from a re-analysis of the deposited data

How the results depend on the processing

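No subunit gene passed the adjusted test under any alternative: the median over probes, no filter or one at the 25th percentile, no intensity trend, cyclic loess, background subtraction, Xist as a covariate, without both arrays of low Xist, or without any 1 array. Without transgenic TAC 2, 1 member passed for genotype, Psmc3ip, which is no subunit (0.55 ± 0.12, SE; adjusted p = 0.0375), so that the count ran from 0 to 1. Without both arrays of low Xist (transgenic sham and wild-type TAC 2), the TAC median was -0.13 over all subunits, -0.13 in core, -0.13 in immune and -0.13 in regulatory genes. The genotype median was 0.16 over all subunits and 0.14 in regulatory genes. This fit leaves 1 wild-type TAC array, too few for its adjusted p-values to decide a call. Its TAC values are wild-type TAC 1 minus wild-type sham, and its genotype values the transgenic TAC arrays minus wild-type TAC 1. In that setting 5 values changed sign: for TAC Psmb10 (-0.13) and Psmd4 (-0.033), for genotype Psmb10 (0.22), Psmb5 (0.048) and Psmb6 (0.029). With Xist as a covariate, the TAC value of Psmb9 was 0.039. With the median over probes, Psmd7 was 0.012 for TAC in wild type and -0.35 for the difference of the responses. Without 1 array, the genotype median ran from -0.0028 (without transgenic TAC 1) to 0.10 in core, from 0.075 (without transgenic TAC 1) to 0.37 in immune and from -0.044 (without wild-type TAC 1) to 0.072 in regulatory genes; the immune TAC median ran from 0.078 (without wild-type sham) to 0.29; the genotype value of Psmb5 ran from -0.087 to 0.034 and the TAC value of Psmb9 from -0.17 to 0.068. The values without both arrays of low Xist rest on wild-type TAC 1. Without 1 sham array, the TAC values are those of the other genotype alone. The genotype values are then those of the TAC arrays alone. The cause of the other changes was not tested. Psme1 lost its call with the median over probes (-0.70, adjusted p = 0.0615), without the trend (adjusted p = 0.0726), with Xist as a covariate (-0.60, adjusted p = 0.104) and without both arrays of low Xist (-0.53, adjusted p = 1.00). The titles number the TAC arrays 1 and 2 without saying whether equal numbers share a preparation, and the deviations of the 2 pairs correlated at -0.03. With a replicate block, 0 members passed for transgenic against wild type after TAC or for the difference of the responses. Of all genes 51 passed after TAC with the block, against 23 without it.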
